A study of Homo sapiens with 16 samples.

Results

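The MCM genes encode the replicative DNA helicase and its close relatives. The members described here are MCM2, MCM3, MCM4, MCM5, MCM6, MCM7, MCM8 and MCM10, 8 genes of 19775 measured. They were chosen with earlier results of these data known. MCM9 shares the family name but is read among the partner genes described last. For the members, every probe set whose only gene symbol in the array annotation is one of their names was taken. That gave 18 probe sets of 54675, between 1 and 5 for each gene. The study measured RNA of SAOS cells on 16 Affymetrix expression arrays, 1 sample per array, to ask how extra SMYD2 acts on RB, the retinoblastoma protein, when RB is put back into these cells. SAOS is a human osteosarcoma cell line without functional RB, and SMYD2 is a lysine methyltransferase with RB among its substrates. There were 4 groups of 4 arrays. The first received human RB and mouse SMYD2 together, the second human RB, the third mouse SMYD2, all by transient transfection, and the fourth, the control, was not transfected. An arm with an empty vector was not named, so a difference from control includes whatever transfection itself does. In every group the arrays are numbered 1, 3, 4 and 5. Whether these were separate cultures is not said in the labels, so the p-values cover only the spread between these samples, and that spread may be technical.

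MCM2 to MCM7 form a ring of different subunits that is loaded onto replication origins before S phase and unwinds DNA at the fork once CDC45 and the GINS complex have joined it. MCM4, MCM6 and MCM7 make up the part of the ring with helicase activity of its own, and MCM2, MCM3 and MCM5 are counted as its regulatory subunits. MCM10 is not part of the ring but is needed to start it moving, and MCM8 works with MCM9 as a separate helicase in homologous recombination repair. Most of these genes are textbook targets of the E2F transcription factors, which RB binds and holds back.

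The promoters of the members are shown because E2F factors bind words of a known kind. RefSeq windows from 250 bases before to 50 bases after the start of transcription, on build GRCh38.p14, were matched for 6 of the 8 members, all but MCM4 and MCM5. The E2F words searched were TTTCCCGC, TTTCGCGC, TTTGCCGC and TTTGGCGC on both strands, where a match on one strand can overlap a match on the other. These genes have 8 windows, 3 of them for MCM7. At least 1 word stood in 5 of the 8 windows, 1 each of MCM2, MCM3, MCM6, MCM7 and MCM8, against 3.31% of all 35114 RefSeq windows of this length. The 4 windows printed below are those of MCM7, MCM3, MCM6 and MCM10. MCM7 and MCM3 had the lowest limma adjusted p of the members with RB plus SMYD2 against control, each gene read at its probe set with the highest mean. MCM6 held the most matches. MCM10, whose difference was the largest of the members in that comparison, held none. Each is written 5′ to 3′ on the strand of its gene, with E2F words in capitals.
MCM7, chr7:100101348-100101647, minus strand: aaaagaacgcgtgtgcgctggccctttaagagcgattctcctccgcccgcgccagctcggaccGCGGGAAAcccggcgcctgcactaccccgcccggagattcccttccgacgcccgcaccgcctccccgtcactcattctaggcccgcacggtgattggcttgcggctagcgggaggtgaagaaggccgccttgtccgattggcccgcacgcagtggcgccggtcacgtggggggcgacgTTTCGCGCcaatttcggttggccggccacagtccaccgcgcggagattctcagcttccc
MCM3, chr6:52284693-52284992, minus strand: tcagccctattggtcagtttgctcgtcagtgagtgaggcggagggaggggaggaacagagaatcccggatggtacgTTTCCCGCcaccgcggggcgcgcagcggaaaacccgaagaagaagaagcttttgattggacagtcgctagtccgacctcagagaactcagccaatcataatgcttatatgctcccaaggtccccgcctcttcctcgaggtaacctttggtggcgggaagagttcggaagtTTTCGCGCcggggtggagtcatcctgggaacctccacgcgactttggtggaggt
MCM6, chr2:135876394-135876693, minus strand: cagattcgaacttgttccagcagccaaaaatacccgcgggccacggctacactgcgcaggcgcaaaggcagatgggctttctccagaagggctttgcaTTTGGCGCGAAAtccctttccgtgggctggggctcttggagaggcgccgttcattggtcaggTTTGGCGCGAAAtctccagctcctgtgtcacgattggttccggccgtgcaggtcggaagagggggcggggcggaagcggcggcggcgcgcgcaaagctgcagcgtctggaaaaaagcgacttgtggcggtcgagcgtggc
MCM10, chr10:13161308-13161607, plus strand: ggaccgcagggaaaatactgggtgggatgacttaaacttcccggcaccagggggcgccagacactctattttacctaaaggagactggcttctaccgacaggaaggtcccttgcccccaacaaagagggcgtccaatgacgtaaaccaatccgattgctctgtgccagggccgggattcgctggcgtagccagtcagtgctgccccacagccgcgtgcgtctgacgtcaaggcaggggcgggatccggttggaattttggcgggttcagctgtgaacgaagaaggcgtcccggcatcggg

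In MCM7 the words began 187 and 9 bases before the start, and the other 2 of its 3 RefSeq windows held none. In MCM3 they began 174 and 4 bases before the start. The MCM6 window had 4 matches in 2 stretches, each stretch reading as TTTGGCGC on one strand and, overlapping it, as TTTCGCGC on the other. MCM2 had a single stretch read on both strands from 3 bases after its start, and MCM8 had 1 word 27 bases after its start. In the same windows the word CCAAT, which NF-Y binds, stood in all but that of MCM2, against 34.6% of all windows, and the CHR words TTTGAA and TTCGAA stood only in MCM6, against 16.4%. A match is a description of the letters and not evidence of binding, and a window without one says only that these letters are not in it.

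All levels are log2 signals of the deposited RMA values, made by the authors (RMA summarises the probes of a set after background correction and quantile normalization). Each gene is given by its brightest probe set (that with the highest mean) unless another is named, and levels are not compared between probe sets. Differences are the first group minus the second with the standard error (SE) of a limma fit to all 16 arrays. A gene is said to rise or fall only where the Benjamini-Hochberg adjusted p over all 19775 genes was under 0.05. Array medians lay between 5.59 and 5.64. The osteoblast markers measured, 7 of 9 on the list, had mean signals between percentiles 85 and 99.3 of all genes, and of these SPARC passed the test in 4 comparisons, with means of 11.80 in RB plus SMYD2, 11.83 in RB, 10.99 in SMYD2 and 11.01 in control cells, and COL1A1 in 1. The 4 leukocyte markers measured stood between percentiles 4.5 (PTPRC) and 44.1 (ITGAM), and the 5 endothelial markers between 5.09 (KDR) and 42.9 (PECAM1). The epithelial markers were mixed, with EPCAM and KRT18 at 78.2 and 82, and KRT8, KRT19 and CDH1 at 46.5, 22.6 and 9.94. Of the 4 leukocyte, 5 endothelial and 5 epithelial markers, only TEK passed the test in a comparison, with means of 5.58 in RB plus SMYD2, 5.45 in RB, 5.28 in SMYD2 and 5.34 in control cells. Of 8 genes of the response to introduced nucleic acid, IFNB1 passed in 1 comparison. The part of these genes in the MCM results was not tested. SMYD2 array 1 stood apart in its ACTB control probe sets: their signal was 3.53 higher at the 3′ end than at the 5′ end, against 2.46 in control array 1 and 0.54 to 1.63 in the others. The introduced RB was visible in the brighter RB1 probe set, which read 7.40 to 9.62 in the arrays with RB and 6.24 to 6.98 in those without. The introduced SMYD2 was not seen: its brightest set averaged 10.18 in RB plus SMYD2, 10.05 in RB, 10.28 in SMYD2 and 10.16 in control cells, and differed by 0.11 ± 0.08 with SMYD2 against control (limma adjusted p = 0.991). Human probes may not bind the mouse transcript.

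Of the ring subunits with helicase activity, all 3 fell with RB plus SMYD2, and MCM7 also fell with RB alone. MCM7 read 10.38, 10.43, 10.11 and 10.06 in the RB plus SMYD2 arrays 1, 3, 4 and 5. It read 10.51, 10.42, 10.51 and 10.60 in RB arrays, 11.14, 11.11, 11.25 and 11.18 in SMYD2 arrays, and 11.05, 11.13, 11.20 and 11.27 in control arrays. All 8 arrays with RB therefore lay below all 8 without it. MCM7 fell by 0.92 ± 0.09 with RB plus SMYD2 against control, a 1.89-fold decrease (limma adjusted p = 4.05e-06), and by 0.92 ± 0.09 against SMYD2 (limma adjusted p = 4.23e-06). With RB against control it fell by 0.65 ± 0.09, a 1.57-fold decrease (limma adjusted p = 0.000555). A bulk measurement cannot tell fewer cells with a transcript from less of it per cell, here and in all that follows.

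MCM4 read 9.69, 9.64, 9.22 and 9.28 in RB plus SMYD2 arrays, 9.77, 9.80, 9.45 and 9.56 in RB arrays, 10.46, 10.29, 9.98 and 10.01 in SMYD2 arrays, and 10.55, 10.16, 10.07 and 9.99 in control arrays. Again no array with RB reached an array without it, although arrays 1 and 3 were the higher ones in every group. MCM4 fell by 0.74 ± 0.15 with RB plus SMYD2 against control (limma adjusted p = 0.00382) and by 0.73 ± 0.15 against SMYD2 (limma adjusted p = 0.00418). With RB against control it differed by -0.55 ± 0.15 and just missed the threshold (limma adjusted p = 0.0503). MCM6 read 11.11, 11.16, 10.86 and 10.82 in RB plus SMYD2 arrays, 11.20, 11.30, 11.02 and 11.12 in RB arrays, 11.64, 11.46, 11.39 and 11.36 in SMYD2 arrays, and 11.49, 11.47, 11.38 and 11.31 in control arrays. Its differences were the smallest in the family in all 3 comparisons. It fell by 0.43 ± 0.09 with RB plus SMYD2 against control (limma adjusted p = 0.00742), by 0.47 ± 0.09 against SMYD2 (limma adjusted p = 0.00334), and differed by -0.25 ± 0.09 with RB against control (limma adjusted p = 0.199).

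Among the regulatory subunits, MCM3 varied least between arrays of 1 group. It read 11.32, 11.38, 11.19 and 11.16 in RB plus SMYD2 arrays, 11.57, 11.43, 11.50 and 11.55 in RB arrays, 11.98, 11.79, 11.96 and 11.93 in SMYD2 arrays, and 12.09, 11.91, 11.90 and 11.95 in control arrays. The RB plus SMYD2 arrays lay below the RB arrays, and the RB arrays below all others. MCM3 fell by 0.70 ± 0.07 with RB plus SMYD2 against control (limma adjusted p = 7.04e-06), by 0.65 ± 0.07 against SMYD2 (limma adjusted p = 1.64e-05), and by 0.45 ± 0.07 with RB against control (limma adjusted p = 0.00197). MCM2, the subunit that also carries histones at the fork, read 10.91, 10.70, 10.60 and 10.62 in RB plus SMYD2 arrays, 10.99, 10.73, 10.94 and 11.07 in RB arrays, 11.56, 11.27, 11.49 and 11.46 in SMYD2 arrays, and 11.47, 11.18, 11.42 and 11.42 in control arrays. The arrays with and without RB did not overlap, while the 2 groups with RB overlapped each other. It fell by 0.67 ± 0.10 with RB plus SMYD2 against control (limma adjusted p = 0.000248) and by 0.74 ± 0.10 against SMYD2 (limma adjusted p = 0.000101), beside a decrease of 0.44 with RB against control (limma adjusted p = 0.0173).

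MCM5 was the most scattered ring subunit. It read 10.69, 10.55, 9.98 and 9.998 in RB plus SMYD2 arrays, 10.81, 10.64, 10.28 and 10.53 in RB arrays, 11.64, 11.23, 10.84 and 10.79 in SMYD2 arrays, and 11.38, 11.13, 10.76 and 10.82 in control arrays. RB array 1 stood above control array 4, so these 2 groups overlapped, while the RB plus SMYD2 arrays stayed below all SMYD2 and control arrays. MCM5 fell by 0.72 ± 0.20 with RB plus SMYD2 against control (limma adjusted p = 0.0383) and by 0.82 ± 0.20 against SMYD2 (limma adjusted p = 0.0180), and differed by -0.46 ± 0.20 with RB against control (limma adjusted p = 0.320). The first of these calls was lost with each of 6 of the 16 arrays left out, up to a limma adjusted p of 0.142 without RB plus SMYD2 array 4, and the second with each of 2, up to 0.0768 without RB plus SMYD2 array 5.

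**Figure D1:**
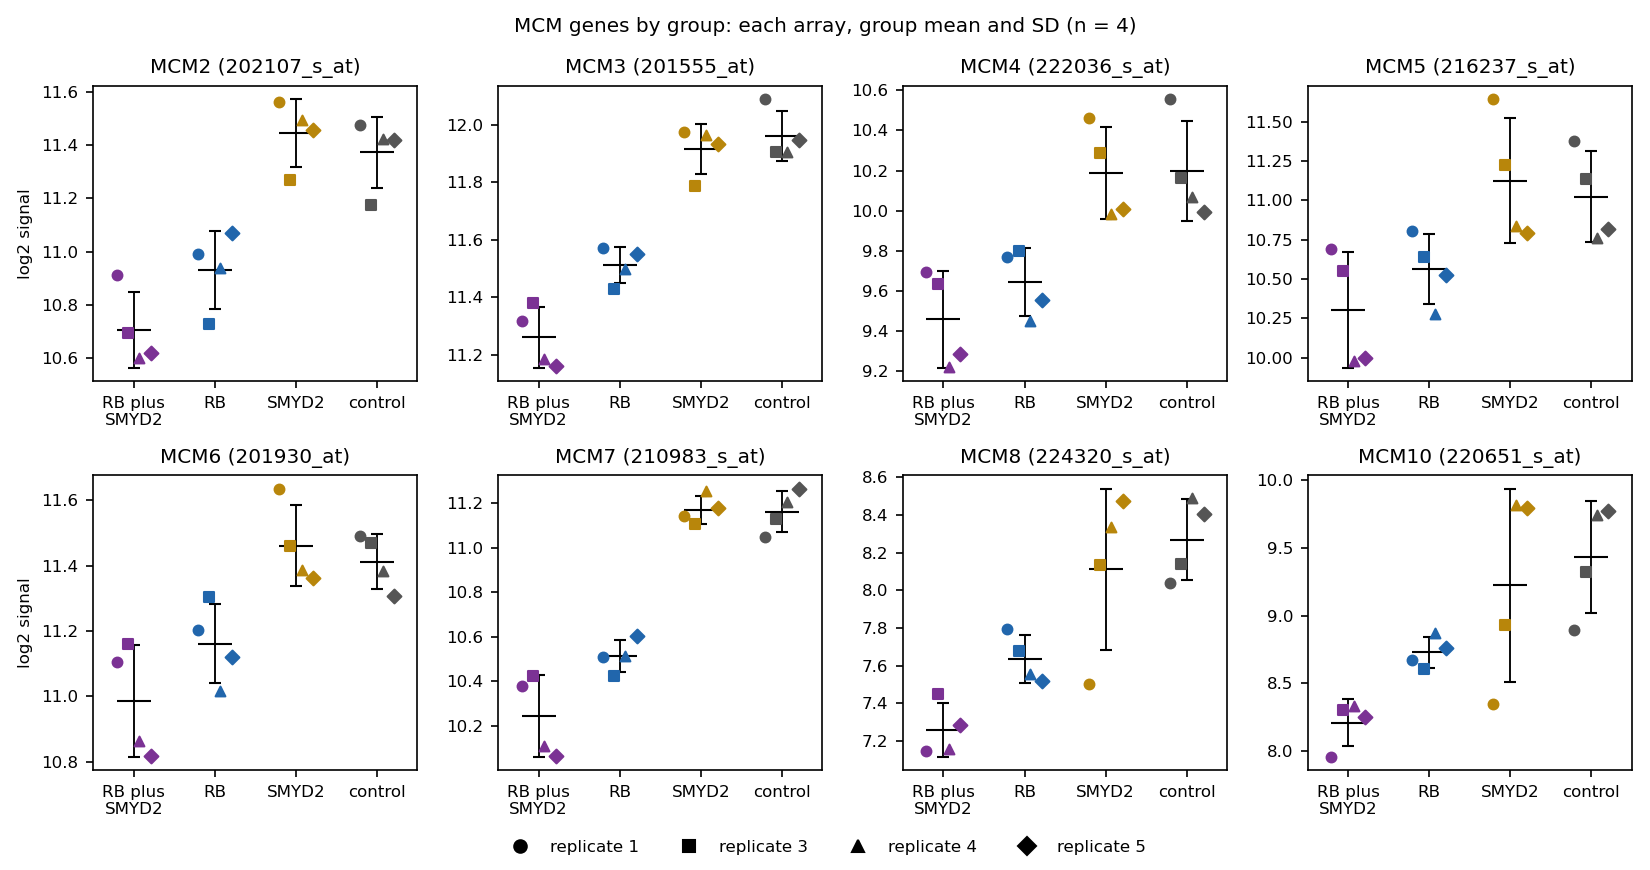
Log2 signal of the brightest probe set of each MCM gene on every array, by group, with replicate numbers as symbols and a bar for the group mean and SD (n = 4). In all 8 panels the RB plus SMYD2 arrays lie below the control arrays, and MCM7 shows the widest gap between arrays with and without RB among the ring subunits, from 10.60 to 11.05.

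MCM10, the activator outside the ring, had the largest differences of the family from control, and the widest spread of the brightest sets in SMYD2 and control arrays (SD 0.71 and 0.41, n = 4). Its brightest set read 7.96, 8.30, 8.33 and 8.26 in RB plus SMYD2 arrays, 8.68, 8.61, 8.87 and 8.76 in RB arrays, 8.35, 8.93, 9.81 and 9.79 in SMYD2 arrays, and 8.89, 9.32, 9.74 and 9.77 in control arrays. SMYD2 array 1 and control array 1, the 2 arrays with the highest ACTB 3′ to 5′ difference, were the lowest of their groups. RB plus SMYD2 array 1 was also the lowest of its group, with an ACTB difference of 1.17 against 1.22 in array 3. The same difference in the GAPDH control probe sets was 0.16 in SMYD2 array 1, the highest of all 16, but 0.055 in control array 1, the lowest of its group. The part of RNA quality in these MCM10 levels was not tested. MCM10 fell by 1.22 ± 0.26 with RB plus SMYD2 against control, a 2.32-fold decrease (limma adjusted p = 0.00666), and by 1.01 ± 0.26 against SMYD2 (limma adjusted p = 0.0234). The second decrease was 1.30 without SMYD2 array 1 and 0.81 without SMYD2 array 4. Its call was lost with each of 5 of the 16 arrays left out, up to a limma adjusted p of 0.0779 without SMYD2 array 4.

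The 3 MCM10 probe sets were all lower with RB plus SMYD2 and with RB than in control, but differed in scatter. The set 223570_at read 7.51, 7.53, 7.48 and 7.57 in RB plus SMYD2 arrays, 7.86, 7.92, 7.74 and 7.95 in RB arrays, 8.39, 8.37, 8.60 and 8.55 in SMYD2 arrays, and 8.43, 8.32, 8.51 and 8.54 in control arrays. In this set the RB plus SMYD2 arrays lay below the RB arrays, the RB arrays lay below the rest, and SMYD2 array 1 did not stand out. In a limma fit over all 54675 probe sets, 223570_at fell by 0.93 ± 0.09 with RB plus SMYD2 against control (adjusted p = 5.64e-06) and by 0.58 ± 0.09 with RB against control (adjusted p = 0.00215). The brightest MCM10 set differed by -0.70 ± 0.26 in that second comparison (limma adjusted p = 0.205 over genes), and 222962_s_at by -0.55 ± 0.26 (limma adjusted p = 0.498 over probe sets). The call on MCM10 with RB alone thus depended on which probe set was read.

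MCM8 read 7.14, 7.45, 7.16 and 7.28 in RB plus SMYD2 arrays, 7.79, 7.68, 7.55 and 7.52 in RB arrays, 7.50, 8.13, 8.34 and 8.47 in SMYD2 arrays, and 8.04, 8.14, 8.49 and 8.40 in control arrays. The RB plus SMYD2 arrays were lower than all others, and SMYD2 array 1 again lay far below its group, under every RB array. MCM8 fell by 1.01 ± 0.17 with RB plus SMYD2 against control, a 2.02-fold decrease (limma adjusted p = 0.000779), by 0.85 ± 0.17 against SMYD2 (limma adjusted p = 0.00324), and by 0.63 ± 0.17 with RB against control (limma adjusted p = 0.0471). This last call was lost with each of 12 of the 16 arrays left out, up to a limma adjusted p of 0.169 without control array 4. The dim MCM8 set 233560_x_at, at 4.85 to 5.47 on all arrays, differed by 0.056 ± 0.13 and 0.039 ± 0.13 from control with RB plus SMYD2 and with RB, and neither passed (limma adjusted p = 0.918 and 0.968 over probe sets).

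Counted over the members, 8 of 8 fell with RB plus SMYD2 against control, where 4.20% of all genes did. Likewise 8 of 8 fell with RB plus SMYD2 against SMYD2, where 4.25% of all genes did. These comparisons share the RB plus SMYD2 arrays. MCM9, read among the partner genes and not counted here, passed in neither (limma adjusted p = 0.0792 against control). With RB against control 4 of 8 fell, MCM2, MCM3, MCM7 and MCM8, where 1.71% of all genes did, and with RB against SMYD2 3 of 8 fell, MCM2, MCM3 and MCM7, where 1.86% did. The median member difference was -0.73, -0.78, -0.51 and -0.50 in these 4 comparisons in turn, beside medians over all genes of 0.023, 0.0088, 0.0056 and -0.0090. No member rose in any comparison. All arrays of RB plus SMYD2 lay below all control arrays for 8 of 8 members, as they did for 7.79% of all genes, and below all SMYD2 arrays for 8 of 8 members, against 6.61%. All RB arrays lay below all control arrays for 7 of 8 members, against 5.20%.

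Arrays with equal numbers deviated together across most groups in these data, and each of the 8 members was lower with RB than in control in 4 of 4 same-numbered pairs. For the 7 members whose RB arrays all lay below all control arrays, any pairing gives this. The pairs therefore add something for MCM5 only, and the share of all genes lower in 4 of 4 pairs is not given here. With the replicate number as a block, limma called 8 of 8 members lower with RB against control, where it called 3.47% of all genes lower. The limma adjusted p with the block was 0.000266 for MCM4, 0.00179 for MCM5, 0.0190 for MCM6 and 0.0174 for MCM10, the 4 members not called without it. The count without the block ranged from 2 to 6 with 1 array left out, with 2 called without RB array 3, RB array 4, control array 4 or control array 5 and 6 called without SMYD2 array 1. MCM3 and MCM7 kept their calls in all 16 cases. Without SMYD2 array 1, MCM4 and MCM10 were added (limma adjusted p = 0.0236 and 0.0490), and 536 of all 19775 genes were called lower.

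**Figure D2:**
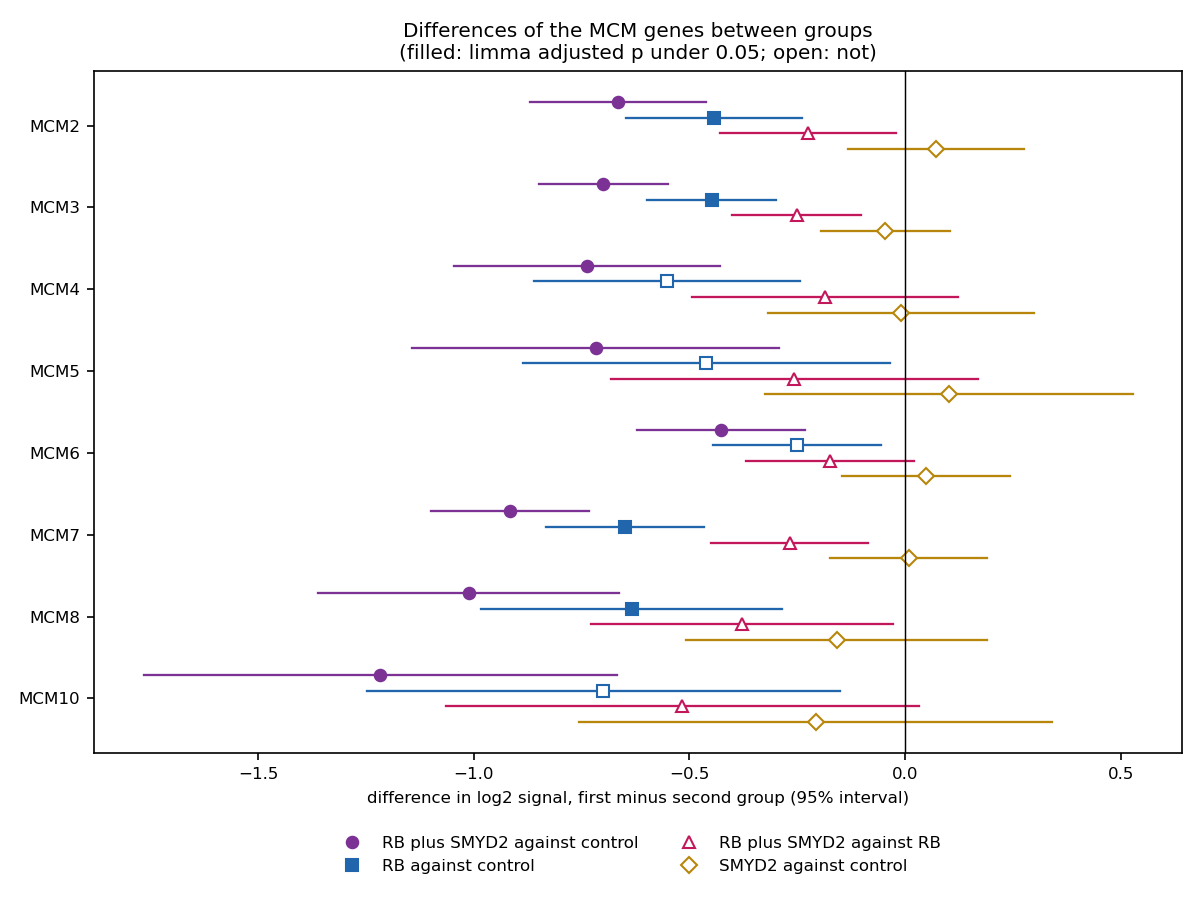
Differences in log2 signal between groups for each MCM gene, with the 95% interval of the limma fit; filled symbols passed an adjusted p of 0.05. The differences of RB plus SMYD2 from control run from -1.22 (MCM10) to -0.43 (MCM6), those of RB from control from -0.70 to -0.25, and those of SMYD2 from control lie on both sides of 0.

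Of the 18 probe sets, 13 fell with RB plus SMYD2 against control, where 2.12% of all probe sets did, and 13 fell against SMYD2, where 2.12% did. With RB against control 5 fell, those of MCM2 and MCM3, both of MCM7 and 223570_at of MCM10, where 0.662% of all probe sets did. With the replicate block the number was 13, where 1.61% of all probe sets were called lower. The sets of 1 gene could differ. In MCM4, with 5 sets, 3 fell with RB plus SMYD2 against control, by 0.74, 0.64 and 0.71, whereas 212142_at differed by -0.48 ± 0.22 (limma adjusted p = 0.350) and 242479_s_at by -0.015 ± 0.11 (limma adjusted p = 0.978). MCM5 gave -0.72 in both its sets, and there the dimmer one passed (limma adjusted p = 0.0327 over probe sets) while the brighter did not (limma adjusted p = 0.0614). The dim MCM6 set 238977_at, at 4.62 to 5.19, differed by -0.31 ± 0.10 (limma adjusted p = 0.115).

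RB plus SMYD2 against RB compares the groups that received RB with and without SMYD2. No member passed, 0 of 8, as limma called 0% of all genes lower and none higher, with 856 genes at an unadjusted p under 0.05. All 8 members nevertheless had differences below 0, from -0.52 ± 0.26 for MCM10 to -0.17 ± 0.09 for MCM6, with a median of -0.25 beside a median over all genes of 0.00455. MCM7 differed by -0.27 ± 0.09 (95% interval -0.45 to -0.08, limma adjusted p = 0.880) and MCM3 by -0.25 ± 0.07 (95% interval -0.40 to -0.10, limma adjusted p = 0.696). The unadjusted p was under 0.05 for 4 of the 8 members, and for all 8 with the replicate block, under which 1236 of 19775 genes had one and no member passed either. The arrays of the 2 groups did not overlap for 3 of 8 members, MCM3, MCM8 and MCM10, against 1.98% of all genes.

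In same-numbered pairs the gap was uneven. RB plus SMYD2 minus RB was -0.13, 0.0008, -0.40 and -0.54 for MCM7 in numbers 1, 3, 4 and 5. For the mean of MCM2 to MCM7 it was -0.12, -0.08, -0.29 and -0.41. The gap was therefore wider in numbers 4 and 5. MCM8 and MCM10 did not follow this: their pairs gave -0.65, -0.23, -0.40 and -0.23 for MCM8 and -0.72, -0.31, -0.54 and -0.51 for MCM10.

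These 2 groups also differed in RB1 signal. With RB plus SMYD2 against RB the brighter RB1 probe set differed by 0.97 ± 0.31, higher in 4 of 4 pairs, and did not pass (limma adjusted p = 0.880). RB1 read 7.90, 7.90, 9.25 and 9.62 in RB plus SMYD2 arrays, 7.40, 7.43, 8.10 and 7.87 in RB arrays, 6.89, 6.59, 6.98 and 6.92 in SMYD2 arrays, and 6.24, 6.49, 6.27 and 6.93 in control arrays. RB plus SMYD2 minus RB was 0.50, 0.47, 1.14 and 1.75 for RB1 in the same pairs. The pairs with the wider RB1 gap were thus those with the wider MCM2 to MCM7 gap, and the part of RB1 level in the difference between these 2 groups was not tested. The mean of MCM2 to MCM7 was 10.68, 10.64, 10.33 and 10.32 in RB plus SMYD2 arrays, 10.81, 10.72, 10.62 and 10.74 in RB arrays, 11.40, 11.19, 11.15 and 11.12 in SMYD2 arrays, and 11.34, 11.16, 11.12 and 11.12 in control arrays. The 2 arrays with the highest RB1 signal had the lowest MCM mean of all 16. They bear the numbers 4 and 5, in which MCM4, MCM5 and MCM6 were lower in every group, also without RB. Among the RB arrays, array 4 had the highest RB1 signal and the lowest MCM mean, and array 1 the reverse, but array 5 exceeded array 3 in both.

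**Figure D3:**
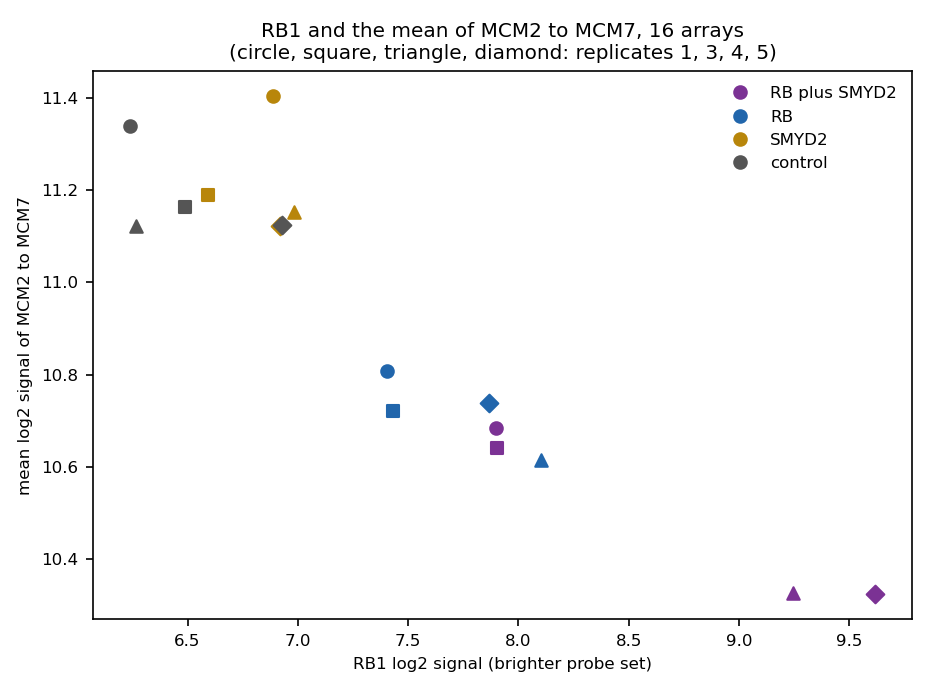
Mean log2 signal of MCM2 to MCM7 (vertical axis) against the log2 signal of the brighter RB1 probe set (horizontal axis), 1 point per array, with colours for groups and symbols for replicate numbers. RB plus SMYD2 arrays 4 and 5 sit apart at RB1 signals of 9.25 and 9.62 and MCM means of 10.33 and 10.32, while arrays without RB hold MCM means of 11.12 or more.

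No difference of the family was detectable with SMYD2 alone. Against control 0 of 8 members passed, limma called 0% of all genes lower and none higher, and 572 genes but no member had an unadjusted p under 0.05. The differences ran from -0.21 ± 0.26 for MCM10 to 0.10 ± 0.20 for MCM5, 4 of 8 below 0, and every member's groups overlapped. Most genes overlapped here: of all 19775, 119 (0.602%) had all SMYD2 arrays below all control arrays and 238 had them above. The intervals bound what could have been missed: -0.17 to 0.19 for MCM7, -0.20 to 0.10 for MCM3 and -0.75 to 0.34 for MCM10. Whether RB lowered the family by a different amount with SMYD2 than without it was tested as the interaction. It was called for 0 of 8 members and 0% of all genes, with 582 genes at an unadjusted p under 0.05 (limma). The member estimates were all below 0, from -0.36 for MCM5 to -0.18 for MCM4, and the intervals of MCM2 and MCM7, -0.58 to -0.01 and -0.53 to -0.02, lay below 0 before adjustment. Without SMYD2 array 1 the estimates were -0.084 for MCM4, -0.19 for MCM5, -0.42 for MCM8 and -0.60 for MCM10, and without SMYD2 array 4 that of MCM10 was -0.11.

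The members also varied within groups, and not all in the same way. In all 4 groups MCM4, MCM5 and MCM6 were higher in arrays 1 and 3 than in arrays 4 and 5, a split chosen after the values were seen. For MCM5 the gap was 0.63 in RB plus SMYD2, 0.32 in RB, 0.62 in SMYD2 and 0.47 in control arrays. For MCM7, MCM2 and MCM3 the gap was above 0 in RB plus SMYD2 arrays, at 0.32, 0.19 and 0.18, and between -0.14 and 0.07 in the other groups. MCM10 ran the other way in its brightest set, with gaps of -0.16 in RB plus SMYD2, -0.17 in RB, -1.16 in SMYD2 and -0.65 in control arrays. The set 222962_s_at gave -0.28, -0.24, -1.14 and -0.79 in the same groups, but 223570_at only -0.01, 0.05, -0.19 and -0.15. In MCM4 the set 212141_at likewise did not share the gap of the brightest set, with 0.09, -0.07, -0.46 and -0.01 against 0.41, 0.28, 0.38 and 0.33. The gap thus differed between probe sets of 1 gene, and the labels do not say what the replicate numbers stand for.

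As a description over the 16 deviations from group means, which share arrays and replicate numbers, MCM4 and MCM5 correlated at a Pearson r of 0.95, MCM5 and MCM6 at 0.90 and MCM8 and MCM10 at 0.86, whereas MCM5 and MCM10 stood at -0.83 and MCM4 and MCM7 at 0.02. Over the 16 arrays with group differences kept in, the 15 pairs among MCM2 to MCM7 had r between 0.76 and 0.97. For the deviations within groups, the same 15 pairs ran from 0.02 to 0.95. The first range contains the group differences already described, so it is not separate from them.

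**Figure D4:**
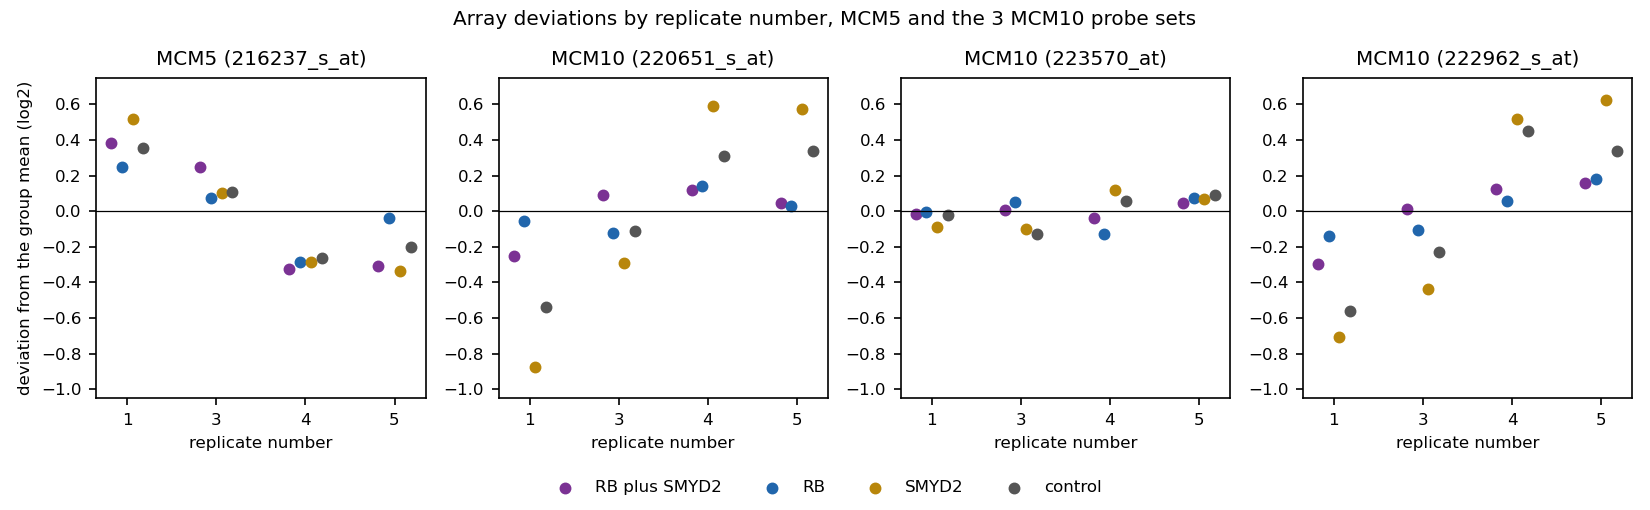
Deviation of each array from its group mean (log2) by replicate number for the brightest MCM5 probe set and the 3 MCM10 probe sets, with colours for groups. MCM5 is high in numbers 1 and 3 and low in 4 and 5 in every group, 220651_s_at and 222962_s_at of MCM10 run the other way, and 223570_at of MCM10 lies within 0.13 of its group means.

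The genes whose signal followed the mean of MCM2 to MCM7 most closely over the 16 arrays were KIFC1, a mitotic kinesin, with a Pearson r of 0.99, TEX30 at 0.99, EXOSC8, a subunit of the RNA exosome, at 0.99, KIF15, another mitotic kinesin, at 0.99, and UBE2T, a ubiquitin-conjugating enzyme of the Fanconi pathway, at 0.98. For MCM8 they were KIF11, the spindle kinesin Eg5, MIS18A, a centromere factor, and ATAD2, at 0.98 each. For MCM10 they were SLF1, TPX2, an activator of Aurora A, and CHEK1, a checkpoint kinase, at 0.99, 0.99 and 0.98. These values describe arrays that share groups and replicate numbers, and they carry no test.

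The MCM ring does not load or start alone, and 30 genes were read beside it, chosen for their roles with earlier results of these data known. They load the ring, regulate its loading, switch it on or travel with it, apart from the 3 genes related to MCM8. With RB plus SMYD2 against control 22 of 30 fell and 0 rose, with a median of -0.70, where 4.20% of all genes fell. The counts were 21 of 30 against SMYD2, with a median of -0.62, where 4.25% of all genes fell, and 15 of 30 with RB against control, with a median of -0.49, where 1.71% did. With RB plus SMYD2 against RB 0 of 30 passed, 10 had an unadjusted p under 0.05 (856 of all 19775 genes did), 29 lay below 0 and the median was -0.21 (limma).

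Of the 6 subunits of the origin recognition complex, which marks origins, 2 fell with RB plus SMYD2 against control. ORC1, its largest subunit, fell by 1.07 ± 0.14 (limma adjusted p = 6.88e-05), and ORC6, named after its value was seen, by 0.92 ± 0.12 (limma adjusted p = 8.81e-05). ORC4 and ORC5 differed by 0.062 ± 0.13 and 0.032 ± 0.13 and did not pass (limma adjusted p = 0.877 and 0.942). Of the 4 loading factors and regulators, all 4 fell. CDT1, which brings the ring to the origin, fell by 1.00 ± 0.11 (limma adjusted p = 2.23e-05), and CDC6, an ATPase of the loading reaction, by 0.94 ± 0.22 (limma adjusted p = 0.0125). MCMBP, which binds MCM subunits off the chromatin and is named after its value was seen, fell by 0.66 ± 0.10 (limma adjusted p = 0.000304).

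The kinase that phosphorylates the loaded ring is CDC7 with DBF4 or DBF4B, and 3 of these 3 genes fell, DBF4B by 0.96 ± 0.13 (limma adjusted p = 9.25e-05). All 5 genes of CDC45 and the GINS complex, the partners that complete the active helicase, fell, by 0.54 to 0.90. Of 5 firing factors 4 fell, and MTBP, named after its value was seen, differed by -0.44 ± 0.14 (limma adjusted p = 0.0733). Of the 4 genes that work at the moving fork all 4 fell, WDHD1, which tethers the polymerase to the helicase, by 1.06 ± 0.09 (limma adjusted p = 2.51e-06) and CLSPN, a checkpoint mediator at the fork, by 1.04 ± 0.20 (limma adjusted p = 0.00305). The 3 genes related to MCM8 did not pass: MCMDC2 differed by -0.10 ± 0.10 (limma adjusted p = 0.660), MCM9, the partner of MCM8, by -0.26 ± 0.09 (limma adjusted p = 0.0792) and HROB, which loads these helicases in repair, by -0.26 ± 0.10 (limma adjusted p = 0.154), the last 2 named after their values were seen. Of the 25 partner genes with a RefSeq window, 13 held an E2F word in at least 1 window, among them genes that did not pass, such as HROB. The 3.31% given above is a share of windows and not of genes, so it is not the background of this count.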

How the data were processed

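RNA of 16 SAOS samples was measured on 1 Affymetrix array design. The deposited log2 values of 54675 probe sets were made by the authors with RMA, per the submitters' processing notes, which give no version. The sources used here do not state if the 16 arrays were normalized in one run. RMA carries no detection call, and precision is limited by the number of arrays. Within a group, 2 arrays correlated at 0.981 to 0.998. Any 2 of the 16 arrays, of the same group or not, shared at most 0.0805% of their values, so none was treated as a copy.

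Of the probe sets, 41097 carried 1 gene symbol in the platform annotation, 1801 several and 11777 none. RefSeq matched 41043 of the 41097 and changed 0 symbols. Each gene was read at its brightest probe set by the mean of the 16 arrays, giving 19775 genes. Groups were compared with limma 3.58.1 in R 4.3.3 (1 mean per group over all 16 arrays, eBayes with a trend, two-sided, Benjamini-Hochberg within each of 7 comparisons, threshold 0.05). The same fit was run on all probe sets. It was tested on simulated data with known changes. Figures were drawn with matplotlib 3.10.9.

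Whether equal replicate numbers pair arrays was checked by correlating their deviations from group means. Every same-numbered pair exceeded 0.1 in 5 of the 6 comparisons of groups, the lowest at 0.145. In RB against SMYD2 the lowest was -0.0772, and there the numbers were not taken as pairs. Alternatives covered the probe set of a gene, the scaling, dim genes (mean under 5), the groups in the fit, the trend, weights for arrays, a replicate block and leaving out each array.

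The members, the 30 partner genes and the tests were chosen with earlier results of these data known. The genes named are the 8 members in every comparison, RB1 and SMYD2 as checks of the constructs, the 6 partner genes with the largest and the 3 with the smallest difference in RB plus SMYD2 against control, the 5 genes most like the mean of MCM2 to MCM7, and the 3 most like MCM8 and MCM10 each. Partner genes named outside this rule are marked as such. Promoter windows and E2F, CCAAT and CHR words came from RefSeq, build GRCh38.p14.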

Additional observations from a re-analysis of the deposited data

Results flagged for a closer look

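In each group of 4 arrays, the highest or lowest value of a member probe set was checked for a gap to its nearest neighbour that, as a share of the whole range of the group, exceeds Dixon's 95% critical value. This held in 4 of 72 groups, and chance alone marks about 1 in 20. SMYD2 array 3 read 7.75 in the MCM4 set 212142_at, against 7.09 to 7.14 in the other SMYD2 arrays. Control array 3 read 6.48 in the MCM4 set 242479_s_at, against 6.74 to 6.76 in the other control arrays. Control array 3 was also low in the MCM7 set 208795_s_at, at 10.73 against 10.86 to 10.88. RB array 5 read 5.40 in the dim MCM8 set 233560_x_at, against 5.02 to 5.08 in the other RB arrays. None of the 4 is the brightest set of its gene, so the gene-level values do not contain them.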

How the results depend on the processing

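The member counts of RB plus SMYD2 against control and against SMYD2 ranged from 6 to 8 under all alternatives, and those of RB plus SMYD2 against RB, of SMYD2 against control and of the interaction were 0 throughout. For RB against control the count of 4 became 7 with array weights and 8 with the replicate block, and ran from 2 to 6 with 1 array left out. For RB against SMYD2 the count of 3 became 7 with array weights and 6 with the replicate block, although equal numbers do not pair these 2 groups, and ran from 3 to 5 with 1 array left out. Over all 19775 genes the block took those called lower in RB against SMYD2 from 368 to 874, and in RB against control from 339 to 686. Counts over all genes with array weights are not given here. The 5 MCM probe sets called in RB against control became 13 with the replicate block and 4 to 8 with 1 array left out. In RB against SMYD2, 5 MCM probe sets became 10 with the block, for which the count over all probe sets is not given here. The block moved no other count of calls among members, partner genes or member probe sets by over 1.5 times, but over all genes it took the calls of RB plus SMYD2 against control to 2562, against 1424 without it, and those against SMYD2 to 2812, against 1422. The causes were not tested. MCM8, RB against control, lost its call on the median of its probe sets (-0.30, limma adjusted p = 0.315), with every probe set tested (0.0850) and with a common median (0.0566), whereas MCM4, RB against control, passed with a common median (0.0481), without dim genes (0.0425), with 2 groups only (0.0408) and without the trend (0.0483). MCM5, RB plus SMYD2 against control, lost its call with every probe set tested (limma adjusted p = 0.0614) and when quantile-normalized again (0.0589), while MCM5, RB plus SMYD2 against SMYD2, and MCM10, RB plus SMYD2 against SMYD2, lost theirs with 2 groups only (0.0750 and 0.0955).

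A sign changed in 16 cases, all in SMYD2 against control, where 0 of the values concerned had been called. MCM4, SMYD2 against control, became 0.10 on the median of its probe sets and 0.0079 when quantile-normalized again, and ran from -0.10 to 0.11 with 1 array left out. MCM5, SMYD2 against control, ran from -0.071 to 0.22. MCM6, SMYD2 against control, became -0.025 on the median of its sets and ran from -0.010 to 0.081. MCM7, SMYD2 against control, became -0.00061 with a common median and -0.011 with array weights and ran from -0.029 to 0.043. MCM8, SMYD2 against control, ran from -0.28 to 0.045. MCM10, SMYD2 against control, became 0.036 on the median of its sets and ran from -0.40 to 0.085.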
